A study of Mus musculus with 22 samples.

Results

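The genes described here are the cyclin-dependent kinase (CDK) inhibitors and the p53 arm of cellular senescence in the mouse spinal cord, 10 genes chosen by name out of the 21995 genes of the expression table. They are the CIP/KIP inhibitors Cdkn1a, Cdkn1b and Cdkn1c, the INK4 inhibitors Cdkn2a, Cdkn2b, Cdkn2c and Cdkn2d, and the p53 gene Trp53 with Mdm2 and Ccng1. All 10 had a row in the table. The rule names them without a threshold on any value, although earlier results of these data were known when it was written.

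Whole spinal cords of C57BL/6 mice were profiled by RNA-seq, with 1 library per mouse and 22 libraries in 4 groups. The aging comparison set 8 old wild-type males of 18–24 months against 8 young wild-type males of 3–4 months, with Roche KAPA HyperPrep libraries throughout. The ALS comparison set 3 symptomatic G93a mice, which carry a human SOD1 transgene with an ALS mutation, against 3 wild-type controls (WT controls), all 5–6 months old and prepared with an Illumina TruSeq kit. Both ALS groups mixed females and males, and sex is not given for each library. Kit, age and experiment change together between the comparisons, so each change was measured within its own comparison. Libraries are lettered within their group for naming only. The young libraries held 5078092 to 9358055 counts in all and the old libraries 5664869 to 9145600. The WT control libraries held 10693060 to 13219797 and the G93a libraries 9675610 to 11872431. The Sod1 row separated G93a libraries at 296.4 to 335.5 CPM (read counts scaled to a common library size, with TMM factors) from WT controls at 156.2 to 167.7. Whether reads of the human transgene fell on this mouse gene was not tested.

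Cells pass from growth into DNA replication when cyclin-bound CDKs phosphorylate the retinoblastoma protein and so release E2F transcription factors. The INK4 proteins bind CDK4 and CDK6 and keep D-type cyclins off them, while the CIP/KIP proteins bind cyclin-CDK complexes, above all those of CDK2. p53 is a transcription factor that stress and DNA damage stabilise. It switches on Cdkn1a to arrest the cycle, and it switches on Mdm2, the ubiquitin ligase that degrades p53 in turn. Senescent cells have left the cycle for good, and high p16Ink4a from Cdkn2a, high p21 from Cdkn1a and a secretory programme of cytokines, proteases and matrix proteins are the marks most often used to find them.

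The promoters of the p53 arm are shown because Trp53, Mdm2, Ccng1 and Cdkn1a are the genes on which the results below turn. A unit of the p53 binding sequence can also be read in each promoter shown. Each run holds the 250 bases before a RefSeq start site on the mouse build GRCm38.p6, 5′ to 3′ on the strand of the gene. Capitals mark each match to the p53 consensus decamer, the 10-letter unit of which a full p53 response element holds a pair. The decamer reads the same on both strands, and no other motif was searched.

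Cdkn1a, chr17:29090729-29090978, plus strand: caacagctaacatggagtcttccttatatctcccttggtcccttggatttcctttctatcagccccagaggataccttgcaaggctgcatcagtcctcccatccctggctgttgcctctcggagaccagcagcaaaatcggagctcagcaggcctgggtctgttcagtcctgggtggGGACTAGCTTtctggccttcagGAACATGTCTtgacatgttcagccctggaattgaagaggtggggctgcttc

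Ccng1, chr11:40755287-40755536, minus strand: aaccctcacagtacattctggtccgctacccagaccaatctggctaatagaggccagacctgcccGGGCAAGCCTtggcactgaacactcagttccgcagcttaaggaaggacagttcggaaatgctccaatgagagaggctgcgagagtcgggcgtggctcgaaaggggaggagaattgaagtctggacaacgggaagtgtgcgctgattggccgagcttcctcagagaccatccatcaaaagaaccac

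Mdm2, chr10:117710759-117711008, minus strand: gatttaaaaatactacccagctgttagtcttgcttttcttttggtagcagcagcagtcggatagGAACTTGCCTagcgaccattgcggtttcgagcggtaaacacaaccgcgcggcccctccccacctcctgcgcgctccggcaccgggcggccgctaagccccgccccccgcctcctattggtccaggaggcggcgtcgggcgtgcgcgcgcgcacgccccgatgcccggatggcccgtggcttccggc

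Trp53, chr11:69580109-69580358, plus strand: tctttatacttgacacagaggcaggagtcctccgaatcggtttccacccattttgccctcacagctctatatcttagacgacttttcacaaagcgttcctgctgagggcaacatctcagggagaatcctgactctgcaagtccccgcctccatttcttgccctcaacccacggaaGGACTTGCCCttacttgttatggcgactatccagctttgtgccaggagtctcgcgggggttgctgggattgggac

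The Cdkn1a window held 2 decamers, at bases 73 to 64 and 51 to 42 before the start. Ccng1 held 1 at bases 185 to 176, Mdm2 held 1 at 186 to 177, and Trp53 held 1 at 75 to 66. RefSeq windows were listed for 9 of the 10 genes, 12 windows in all because Cdkn1a, Cdkn2a and Cdkn2c have 2 listed starts each, and 5 of the 12 held the decamer, the fifth being that of Cdkn2d. Across all 32851 promoter windows of this length, 2341 (7.13%) held it. A match is a string of letters and says nothing of whether p53 was bound. The second Cdkn1a start lies 2790 bases downstream and its window held no match. The starts of Cdkn2a lie 12427 bases apart and give p16Ink4a and p19Arf, whose reads the gene-level counts pool.

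Per unit of transcript length, the genes fell into a high set and a low set. Levels between genes were compared as FPKM (fragments scaled by transcript length and by library size), taken back from the deposited log2 values. In young cords the group medians ran from 20.7 FPKM for Cdkn2d, through 20.36 for Mdm2, 16.34 for Cdkn1b, 16.25 for Cdkn1a, 14.72 for Ccng1 and 11.59 for Cdkn1c, down to 11.54 for Trp53. The ranges of each pair of neighbours in that order overlapped, so their order was not separated by the spread between mice. The next gene, Cdkn2c, had a median of 0.63 FPKM with no overlap with Trp53, followed by Cdkn2b at 0.425 and Cdkn2a at 0.14, which overlapped their neighbours. Thus p18Ink4c, p15Ink4b and the p16Ink4a/p19Arf gene were near the limit of detection in young cords, while p19Ink4d, encoded by Cdkn2d, was the only INK4 member at the level of the CIP/KIP genes.

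In G93a cords Cdkn1a, Ccng1 and Mdm2 had the highest medians. In WT controls the medians of the 7 abundant genes ran from 21.03 FPKM for Cdkn2d to 10.71 for Trp53, again with overlap at every step. In G93a mice Cdkn1a had a median of 45.22 FPKM, then Ccng1 at 42.23 and Mdm2 at 31.85, and the range of Mdm2 did not overlap that of the next gene, Cdkn2d at 23.52. Cdkn1a, with the highest median, ran from 17.49 to 108.6 FPKM over the 3 libraries and so overlapped Ccng1, Mdm2, Cdkn2d, Cdkn1b and Trp53. In G93a library b, at 17.49 FPKM, it lay below Ccng1 (30.68), Mdm2 (27.36), Cdkn2d (23.52) and Cdkn1b (21.57). Old cords kept Cdkn2d on top at 22.16 FPKM, and Cdkn2a, at 1.115, stood above Cdkn2c at 0.87 and Cdkn2b at 0.57 with overlapping ranges.

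**Figure D1:**
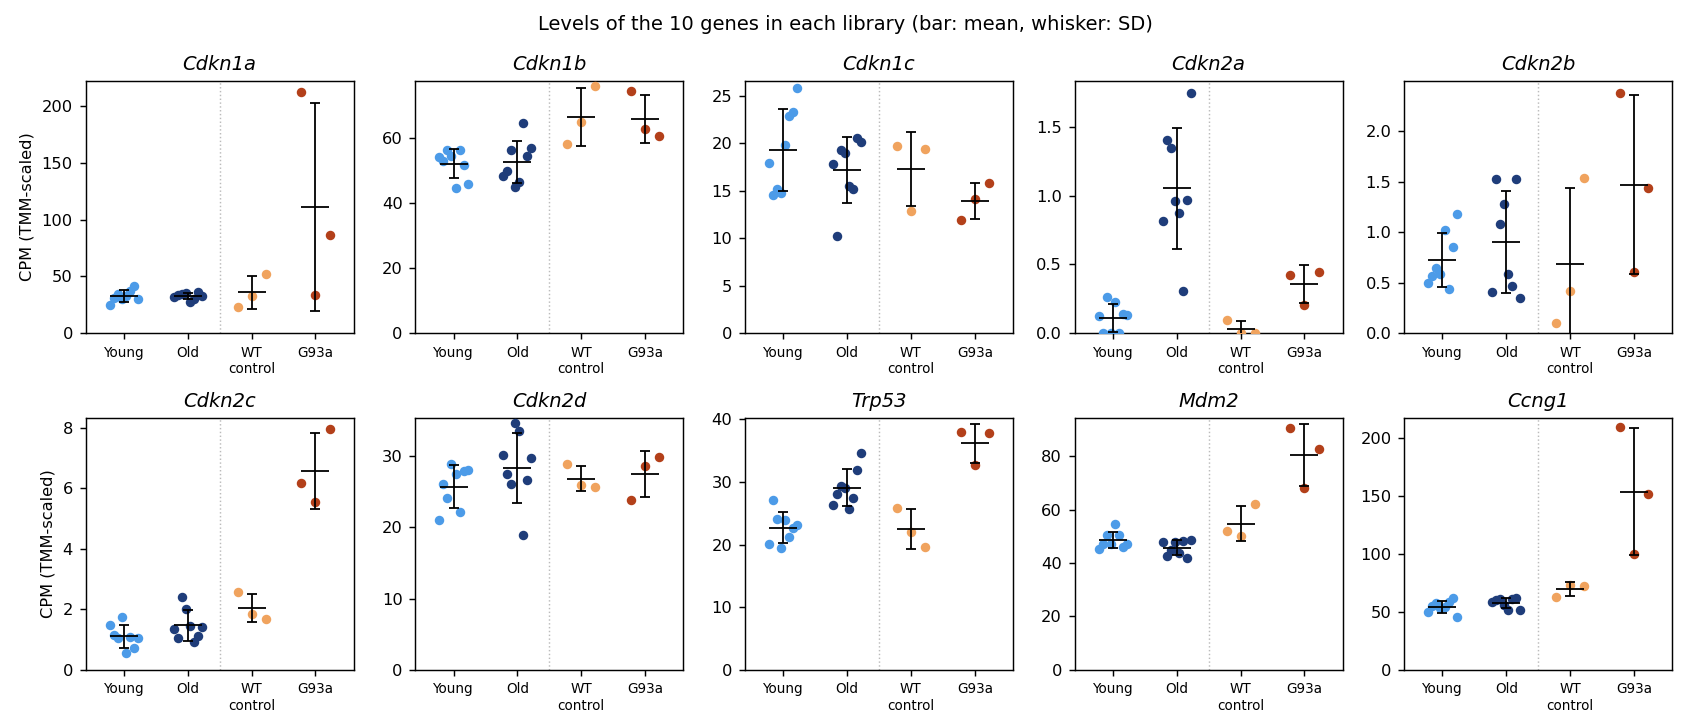
Level of each of the 10 genes in every library, in CPM on a linear axis that starts at 0 in each panel. Points are libraries, the bar is the group mean and the whiskers are 1 SD (n = 8, 8, 3 and 3). The lower whiskers of Cdkn2a and Cdkn2b in WT controls are cut at 0. Trp53 and Cdkn2a stand higher in old than in young cords, whereas Cdkn2a, Cdkn2c, Trp53, Mdm2 and Ccng1 separate G93a from WT control libraries, and the Cdkn1a values of G93a spread from 33.84 to 212.4 CPM.

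With age, the p53 gene itself rose while its targets in this set did not pass the test. Of the 7 genes that passed the filter on low counts in the aging comparison, 1 was higher in old cords (Trp53) and 0 were lower at an adjusted p under 0.05 by edgeR's quasi-likelihood test, where 13.5% of all 13647 genes tested were higher and 12.9% lower. The lowest adjusted p among the other 6 tested genes was 0.209, for Mdm2. At a log2 fold change above 1 as well, 0 of the 7 were called, against 2.18% of all genes, and 0 were called below −1, against 0.044%. Cdkn2a, Cdkn2b and Cdkn2c did not reach the filter and are given by their counts.

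Trp53 (ENSMUSG00000059552, GRCm38 chr11:69580359-69591873, plus strand, protein-coding), the gene of the p53 transcription factor, ran from 19.41 to 27.09 CPM in young cords with a median of 22.88, and from 25.67 to 34.62 in old cords with a median of 28.57. In 6 of the 8 old libraries it was above every young library, and the other 2 fell within the young range. The means were 29.07 ± 2.97 CPM in old and 22.71 ± 2.47 CPM in young cords (SD, n = 8 each). The log2 fold change was 0.35 (SE 0.075, 95% interval 0.19 to 0.50, edgeR adjusted p = 0.00127). An exact two-sided permutation test of the log2 CPM gave p = 0.000466. With each library left out in turn, the edgeR adjusted p stayed between 0.000559 and 0.00364.

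The partners of p53 did not follow at a size the test could call. Mdm2 (ENSMUSG00000020184, chr10:117688875-117710758, minus strand) ran from 45.35 to 54.71 CPM in young cords (median 47.29) and from 42.09 to 48.61 in old cords (median 46.42). Although 4 old libraries lay below every young one, the log2 fold change was −0.09 (SE 0.051, 95% interval −0.20 to 0.02, edgeR adjusted p = 0.209). Ccng1 (ENSMUSG00000020326, chr11:40748552-40755311, minus strand), which encodes cyclin G1, a p53 target that acts in the Mdm2 loop, ran from 45.38 to 62.05 CPM in young cords (median 54.62) and from 51.78 to 61.96 in old cords (median 59.53). No old library exceeded the young range, and the log2 fold change was 0.09 (SE 0.06, 95% interval −0.04 to 0.21, edgeR adjusted p = 0.315).

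The CIP/KIP inhibitors overlapped between the ages. Cdkn1a (ENSMUSG00000023067, chr17:29090976-29100727, plus strand), which encodes p21, ran from 24.34 to 41.7 CPM in young cords (median 31.81) and from 27.71 to 35.84 in old cords (median 32.89). Every old library lay inside the young range, and the log2 fold change was −0.01 (SE 0.085, edgeR adjusted p = 0.973). Its 95% interval, −0.18 to 0.17, gives the uncertainty of the mean change of p21 mRNA with age in whole cord. A transcript on the other strand, AC167363.2, overlaps 1046 bases of this gene and has no row in the table, and the strand setting of the counting is not given in the sources used here.

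Cdkn1b (ENSMUSG00000003031, chr6:134920401-134925513, plus strand), which encodes p27, the inhibitor that keeps many resting cells out of the cycle, ran from 44.65 to 56.31 CPM in young cords (median 53.47) and from 44.88 to 64.47 in old cords (median 52.03). The ranges overlapped apart from 2 old libraries above the young maximum, and the log2 fold change was 0.02 (SE 0.071, 95% interval −0.13 to 0.16, edgeR adjusted p = 0.908). Cdkn1c (ENSMUSG00000037664, chr7:143458339-143461050, minus strand), the imprinted gene of p57, ran from 14.57 to 25.76 CPM in young cords (median 18.85) and from 10.21 to 20.56 in old cords (median 18.39). Only 1 old library lay below the young range, and the log2 fold change was −0.17 (SE 0.136, 95% interval −0.46 to 0.11, edgeR adjusted p = 0.372). The antisense gene Gm44732 overlaps 892 bases of Cdkn1c and has no row in the table.

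Among the INK4 genes, Cdkn2a was the member that separated old from young cords. Cdkn2a (ENSMUSG00000044303, chr4:89274471-89294653, minus strand) had 1, 0, 2, 0, 2, 0, 1 and 1 counts in young libraries a to h. The old libraries a to h had 6, 12, 10, 9, 6, 2, 7 and 10 counts. Old library f, with 2 counts, had no more reads than young libraries c and e, and it stood above them only once depth was taken into account, at 0.309 against 0.260 and 0.226 CPM. In young libraries 3 counts correspond to between 0.32 and 0.59 CPM, so that a listed 0 leaves room for a level of that size.

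Pooled over libraries, Cdkn2a had 62 counts in old cords and 7 counts in young cords, a ratio of 9.4 per unit of depth (95% exact interval 4.3 to 24.3, counting error only). By CPM all 8 old libraries exceeded all 8 young ones, as was so for 3.66% of the genes tested in this comparison, which do not include Cdkn2a. The exact two-sided permutation test over mice gave p = 0.000155, the smallest that 8 against 8 allows. Without the filter on low counts, the edgeR adjusted p was 4.65e-05, and the fitted fold change of a gene so near 0 depends on the prior count and is not given. Even in old cords the mean was 1.05 ± 0.44 CPM (SD, n = 8), and in bulk tissue more cells with the transcript and more transcript per cell cannot be told apart.

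Cdkn2b (ENSMUSG00000073802, chr4:89306299-89311039, minus strand), the neighbour of Cdkn2a that encodes p15Ink4b, had 3 to 9 counts in each young library (median 5) and 2 to 13 in each old library (median 6). The groups overlapped, and the pooled ratio of old to young was 1.32 (95% exact interval 0.876 to 2.0, exact permutation p = 0.554). Cdkn2c (ENSMUSG00000028551, chr4:109660876-109667189, minus strand), which encodes p18Ink4c, had 5 to 12 counts in young libraries (median 8.5) and 6 to 19 in old libraries (median 9.5), with a pooled ratio of 1.39 (95% exact interval 1.0 to 1.94, exact permutation p = 0.114). Neither difference was detectable at this depth, and the intervals cover counting error only.

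Cdkn2d (ENSMUSG00000096472, chr9:21288410-21291407, minus strand), which encodes p19Ink4d, ran from 21.01 to 28.92 CPM in young cords (median 26.88) and from 18.97 to 34.65 in old cords (median 28.59). Although 4 old libraries lay above the young range, 1 lay below it, and the log2 fold change was 0.15 (SE 0.097, 95% interval −0.05 to 0.35, edgeR adjusted p = 0.268). Without old library f, the adjusted p by edgeR was 0.0434 and the log2 fold change 0.22.

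Markers of microglia moved with these changes. In the aging comparison 9 of 12 microglia markers were higher in old cords by the same test and 0 were lower, beside 13.5% and 12.9% of all genes. Their summed level ran from 456.9 to 494.8 CPM in young libraries and from 739.4 to 1180 in old ones. Of 10 neuronal markers 1 was higher and 5 were lower, with summed levels of 7477 to 8604 CPM in young and 6278 to 8531 in old libraries. Of 8 astrocyte markers 4 were higher and 1 was lower (8022 to 8773 CPM against 9054 to 9898), and of 7 oligodendrocyte precursor markers 4 were lower (449.3 to 541.1 against 384.2 to 419.8). No marker of these 4 lists was at 0 throughout a group. Lymphocyte markers summed to 0.194 to 1.32 CPM in young and 0.816 to 2.98 in old libraries, and none of the 8 passed the filter on low counts. Their part in the Trp53 and Cdkn2a results was not tested.

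In symptomatic G93a cords Trp53, Mdm2, Ccng1 and the p18Ink4c gene Cdkn2c rose, while Cdkn1a did not pass the test. Of the 9 genes that passed the filter in the ALS comparison, 4 were higher in G93a mice (Cdkn2c, Trp53, Mdm2 and Ccng1) and 0 were lower at an adjusted p under 0.05 by edgeR, where 18.4% of all 14386 genes tested were higher and 15.5% lower. At a log2 fold change above 1 as well, 2 were called (Cdkn2c and Ccng1), against 8.5% of all genes, and 0 were called below −1, against 1.2%. The 3 libraries of each group did not overlap for the 4 called genes, as in 25.7% of all genes, and 0 of the 9 lay apart in the lower direction, as in 24.7%. With 3 mice against 3, the exact two-sided permutation test cannot go below p = 0.1, and all 4 genes had that value.

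Trp53 stood at 25.91, 22.06 and 19.59 CPM in WT control libraries a, b and c, and at 38.05, 32.63 and 37.87 CPM in G93a libraries a, b and c. All G93a libraries were above all controls, at 36.18 ± 3.08 against 22.52 ± 3.18 CPM (SD, n = 3 each), with a log2 fold change of 0.69 (SE 0.127, 95% interval 0.40 to 0.97, edgeR adjusted p = 0.0049). Mdm2 stood at 52.19, 50.01 and 62.32 CPM in controls and at 90.67, 68.08 and 82.9 CPM in G93a mice. The gap between the highest control and the lowest G93a library was small beside the spread of each group, and the log2 fold change was 0.56 (SE 0.128, 95% interval 0.27 to 0.84, edgeR adjusted p = 0.0115). The Mdm2 call was lost without WT control library b (log2 fold change 0.49, edgeR adjusted p = 0.0562) and without G93a library c (0.54, edgeR adjusted p = 0.0516).

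Ccng1 stood at 62.73, 73.41 and 72.69 CPM in controls and at 209.5, 100.1 and 151.8 CPM in G93a mice. The controls lay close together while the G93a libraries were widely spaced, and the means were 69.61 ± 5.97 and 153.8 ± 54.8 CPM (SD, n = 3 each). The log2 fold change was 1.15 (SE 0.224, 95% interval 0.64 to 1.65, edgeR adjusted p = 0.00639). It kept its call with each library left out, with an adjusted p of at most 0.0331.

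Cdkn1a had the same order of G93a libraries, with a wider spacing, and did not pass the test. It stood at 22.97, 32.83 and 51.79 CPM in controls and at 212.4, 33.84 and 86.39 CPM in G93a libraries a, b and c. Libraries a and c lay above every control, and library b lay inside the control range. The log2 fold change was 1.63 (SE 0.554, 95% interval 0.37 to 2.88, edgeR adjusted p = 0.0522, exact permutation p = 0.2). Without G93a library a the log2 fold change was 0.75 (edgeR adjusted p = 0.185), and without G93a library b it was 2.05 (edgeR adjusted p = 0.00106). Other settings fell on both sides of the threshold, with adjusted p = 0.0367 by edgeR without the count filter, 0.049 with at least 10 counts in every library, 0.000526 by edgeR in the fit of all 22 libraries, 0.0881 by DESeq2 and 0.107 by limma on the deposited log2 values. The fit of all 22 libraries takes 1 spread per gene from all 4 groups, not from the ALS libraries alone.

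The other CIP/KIP genes overlapped between G93a and control cords. Cdkn1b stood at 58.27, 64.82 and 75.92 CPM in controls and at 74.4, 62.74 and 60.61 CPM in G93a mice, all 3 within the control range, and the log2 fold change was −0.01 (SE 0.122, 95% interval −0.29 to 0.27, edgeR adjusted p = 0.96). Cdkn1c stood at 19.74, 12.8 and 19.36 CPM in controls and at 11.95, 14.1 and 15.76 CPM in G93a mice. Its log2 fold change was −0.31 (SE 0.191, 95% interval −0.74 to 0.12, edgeR adjusted p = 0.239), with only 1 G93a library below the control range.

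Among the INK4 genes tested in the ALS comparison, Cdkn2c was the one called higher in G93a mice. It stood at 2.56, 1.85 and 1.69 CPM in controls, from 27, 22 and 22 counts, and at 6.19, 5.54 and 7.97 CPM in G93a mice, from 73, 55 and 89 counts. The lowest G93a library was above the highest control, and the means were 6.56 ± 1.26 and 2.03 ± 0.464 CPM (SD, n = 3 each). The log2 fold change was 1.70 (SE 0.263, 95% interval 1.10 to 2.29, edgeR adjusted p = 0.00226), and the adjusted p was at most 0.0158 with each library left out. The order of its G93a libraries, with c highest, was not that of Cdkn1a, Ccng1 and Mdm2.

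The remaining INK4 genes gave no call in the fit of the ALS comparison. Cdkn2a had 1, 0 and 0 counts in control libraries and 5, 2 and 5 counts in G93a libraries, or 12 counts against 1 in all, a ratio of 13.3 per unit of depth with an exact 95% interval from 1.97 to 569 for counting error only. All 3 G93a libraries were above all 3 controls (exact permutation p = 0.1, the smallest possible), and the adjusted p by edgeR without the count filter was 0.0607. In the fit of all 22 libraries, whose spread also draws on the aging libraries, Cdkn2a was called higher in G93a mice. Cdkn2b had 1, 5 and 20 counts in controls and 28, 6 and 16 counts in G93a mice. The controls alone thus ran from 1 to 20 counts, and the log2 fold change was 1.05 (SE 0.763, 95% interval −0.68 to 2.78, edgeR adjusted p = 0.306). Cdkn2d stood at 28.94, 25.93 and 25.74 CPM in controls and at 23.81, 28.7 and 29.9 CPM in G93a mice, with overlapping groups and a log2 fold change of 0.03 (SE 0.118, 95% interval −0.23 to 0.30, edgeR adjusted p = 0.857).

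Cell type markers moved with the G93a group and, in part, with the order of its libraries. Relative to the mean of the WT controls, G93a libraries a, b and c stood at 5.92, 0.944 and 2.41 for Cdkn1a. They stood at 3.01, 1.44 and 2.18 for Ccng1, and at 1.65, 1.24 and 1.51 for Mdm2. Library a was thus the highest and b the lowest for each of these genes, whereas Cdkn2c stood at 3.04, 2.72 and 3.92. The summed microglia markers stood at 6.55, 3.37 and 5.1 and the astrocyte markers at 2.56, 1.69 and 2.27, in the order of Cdkn1a, Ccng1 and Mdm2. The neuronal markers stood at 0.388, 0.645 and 0.436, the reverse order, whereas the motor neuron markers stood at 0.519, 0.479 and 0.471. Fibroblast and meningeal markers summed to 51.64 to 54.28 CPM in controls and to 120.4, 53.48 and 76.72 CPM in G93a libraries a, b and c, again in the order of Cdkn1a and with library b inside the control range. Of these 6 markers 1 was higher in G93a mice by test. Summed in G93a libraries a, b and c, Schwann cell markers (411, 257.5 and 289 CPM) had the same order. So did border macrophage and monocyte (18.56, 9.27 and 15.85) and oligodendrocyte precursor markers (647.5, 508.6 and 598.1). Oligodendrocyte, endothelial and mural, ependymal, lymphocyte, skeletal muscle and red blood cell markers did not have it.

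By test, 8 of 12 microglia markers were higher in G93a mice (471.4 to 558.9 CPM summed in controls, 1705 to 3312 in G93a mice), as were 5 of 8 astrocyte markers (7482 to 8132 against 13110 to 19850). Over all genes tested, 18.4% were higher and 15.5% lower. Of 10 neuronal markers 8 were lower (8776 to 9271 against 3511 to 5836), and of 7 motor neuron markers 5 were lower (284.3 to 318.2 against 140.3 to 154.5). Of 7 oligodendrocyte precursor markers 4 were higher (509.1 to 531.4 against 508.6 to 647.5). No marker of the microglia, astrocyte, neuron, motor neuron, oligodendrocyte precursor or fibroblast and meningeal lists was at 0 throughout a group. The part of the cell type markers in the results on Cdkn1a, Cdkn2c, Trp53, Mdm2 and Ccng1 was not tested.

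**Figure D2:**
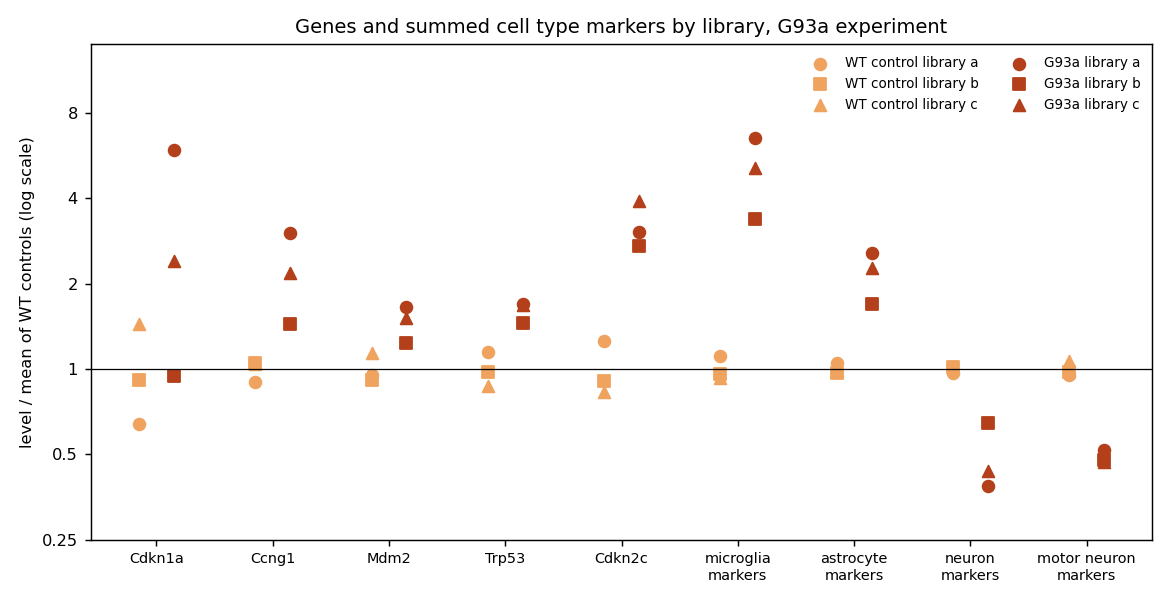
Level in each library of the ALS comparison divided by the mean of the 3 WT controls, on a log axis, for 5 of the genes and for summed cell type markers. Circles, squares and triangles are libraries a, b and c of each group, and G93a library a (circle) is highest for Cdkn1a, Ccng1 and Mdm2 and for microglia and astrocyte markers, at 5.92, 3.01, 1.65, 6.55 and 2.56.

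The change in G93a mice was larger than the change with age for 4 genes. The difference between the changes, G93a minus WT control less old minus young, was tested in a single edgeR fit of all 22 libraries, where 11.6% of 14502 genes had a difference above 0 and 14.2% below 0 at an adjusted p under 0.05, and 3.82% had one above 1 as well, among them Cdkn1a, Cdkn2c and Ccng1. The log2 difference was 1.03 for Ccng1 (SE 0.181, edgeR adjusted p = 0.000187) and 0.62 for Mdm2 (SE 0.114, edgeR adjusted p = 0.000298), and both calls held with each library left out, at an adjusted p of at most 0.00125 and 0.0025. It was 1.60 for Cdkn1a (SE 0.416, edgeR adjusted p = 0.0057), which fell to 0.73 (edgeR adjusted p = 0.107) without G93a library a. It was 1.22 for Cdkn2c (SE 0.391, edgeR adjusted p = 0.0228), a call that was lost without WT control library b (1.15, edgeR adjusted p = 0.0591), WT control library c (1.10, edgeR adjusted p = 0.0671) or G93a library c (1.06, edgeR adjusted p = 0.0807). This fit gave each gene 1 estimate of spread over all 4 groups, to which the aging libraries also contribute. The SE was below that of the ALS comparison alone for Cdkn1a (0.554), Ccng1 (0.224) and Mdm2 (0.128). These p-values do not measure the spread among the 3 G93a mice alone, which was widest for Cdkn1a (CV 82.8%, against 8.67% in old cords).

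Trp53, called in each comparison, had a log2 difference of 0.31 between the changes (SE 0.141, 95% interval 0.02 to 0.60), which did not pass (edgeR adjusted p = 0.107). Without WT control library a it did, at 0.42 (edgeR adjusted p = 0.0424). The differences of Cdkn1b, Cdkn1c, Cdkn2b and Cdkn2d lay between −0.17 and 0.66 on the log2 scale with edgeR adjusted p from 0.557 to 0.826. None is given for Cdkn2a, whose controls were at 2 counts or fewer in every library.

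**Figure D3:**
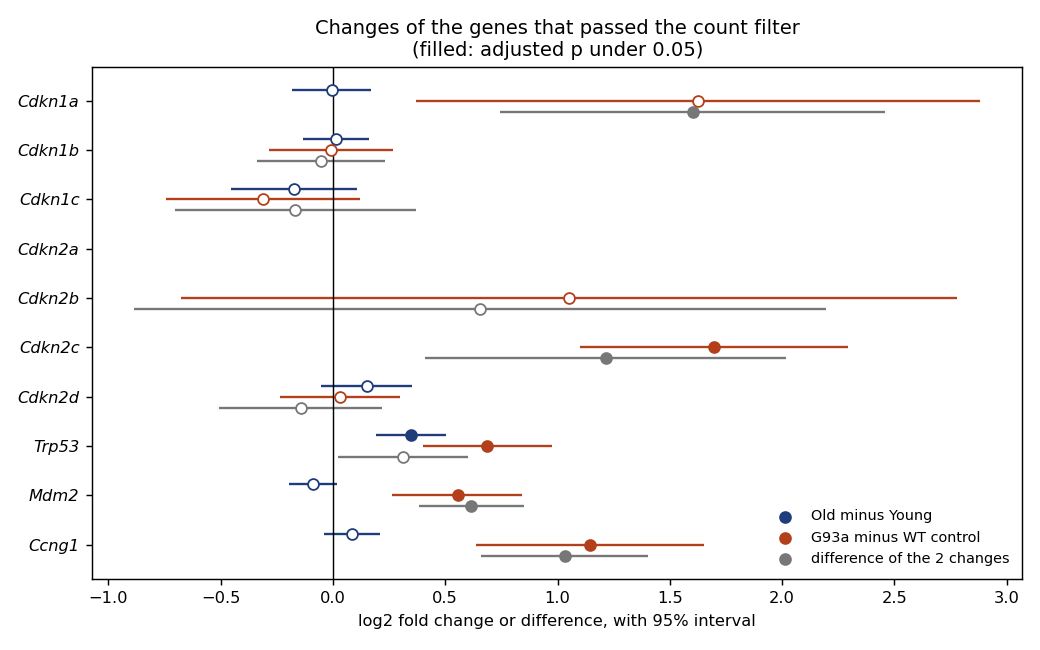
Log2 fold change, or difference of log2 fold changes, with its 95% interval for each gene that passed the count filter. Blue is old minus young, red is G93a minus WT control and grey is the difference between them, filled where the adjusted p was under 0.05, and Trp53 is the gene filled in both comparisons, at 0.35 and 0.69.

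Other genes of the pathway were read from lists chosen by function. Of 26 known p53 targets outside the 10 genes, 24 passed the filter in the aging comparison, where 6 were higher in old cords and 0 lower, beside 13.5% and 12.9% of all genes, with a median log2 fold change of 0.10 against −0.003 over all genes tested. The death receptor gene Fas (0.84, SE 0.228, edgeR adjusted p = 0.00802), the TNF receptor family gene Eda2r (1.01, SE 0.285, edgeR adjusted p = 0.00931) and the stress gene Sesn2 (0.26, SE 0.079, edgeR adjusted p = 0.0164) had the smallest adjusted p-values. In G93a mice 12 of the 26 were higher and 2 were lower (Zmat3 and Tigar), beside 18.4% and 15.5% of all genes, with a median of 0.27. Of the 12, Gtse1 (mean 0.85 CPM in controls) and Tnfrsf10b (0.79) passed the count filter through the G93a group. Neither that count nor that median therefore ranks this list against the others. The growth arrest gene Gadd45a (1.22, SE 0.155, edgeR adjusted p = 0.000899), the pro-apoptotic gene Bbc3 (1.61, SE 0.246, edgeR adjusted p = 0.00212) and Eda2r (2.11, SE 0.348, edgeR adjusted p = 0.00289) led.

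Upstream regulators of p53 and of the INK4 locus were read in the same way. Of 19 listed, 18 passed the filter in each comparison, where 26.4% of all genes were called in either direction with age and 33.9% in G93a mice. With age 1 was higher, the Polycomb gene Cbx7 (0.17, edgeR adjusted p = 0.0122), and 3 were lower, the DNA damage mediator Trp53bp1 (−0.18, edgeR adjusted p = 0.00553), the acetyltransferase Crebbp (−0.27, edgeR adjusted p = 0.0085) and its relative Ep300. In G93a mice 0 were higher and 1 was lower, again Trp53bp1 (−0.40, edgeR adjusted p = 0.0462), while the Polycomb gene Ezh2 (0.63, edgeR adjusted p = 0.0608) and Mdm4 (0.21, edgeR adjusted p = 0.0645) did not pass. The medians were −0.12 and 0.01 on the log2 scale.

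The kinases and cyclins that the INK4 proteins oppose rose in both comparisons. Of 23 cyclin, CDK, RB and E2F genes, 5 of 21 tested were higher in old cords (Cdk4, Cdk6, Ccnd1, Ccnd2 and Ccnd3) and 0 lower, and 10 of 22 tested were higher and 2 lower (Ccne1 and E2f6) in G93a mice. Over all genes tested, 13.5% were higher and 12.9% lower with age, and 18.4% and 15.5% in G93a mice. Among the D-type cyclins, Ccnd1 rose by 0.52 with age (SE 0.071, edgeR adjusted p = 6.54e-06) and by 1.66 in G93a mice (SE 0.139, edgeR adjusted p = 0.000176) on the log2 scale, and Ccnd2 by 0.38 (edgeR adjusted p = 6.05e-05) and 1.38 (edgeR adjusted p = 0.000134). Ccnd3 rose by 0.35 with age (edgeR adjusted p = 0.000477), and Rb1, the retinoblastoma gene, by 0.98 in G93a mice (edgeR adjusted p = 0.00134). The list medians were 0.08 and 0.51 on the log2 scale. In the ALS comparison E2f8 (mean 0.553 CPM in controls) and E2f2 (lowest control at 0.589 CPM) passed the count filter through the G93a group. The G93a count and median of this list therefore do not rank it against the others.

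Genes of DNA replication and mitosis rose in most of their number in G93a mice. Of 22 proliferation genes, 11 were tested with age and 4 were higher, beside 13.5% of all genes. All 4 were subunits of the replicative helicase, namely Mcm3 (0.65, edgeR adjusted p = 0.00999), Mcm6 (0.38, edgeR adjusted p = 0.0405), Mcm2 (0.33, edgeR adjusted p = 0.0172) and Mcm7. In G93a mice 18 of 21 tested were higher and 0 lower, beside 18.4% and 15.5% of all genes, with a median log2 fold change of 1.18. Some, such as Aurkb (mean 0.117 CPM in controls) and Ccnb1 (0.356), were so low in controls that they passed the count filter through the G93a group. Neither the count nor the median of this list therefore ranks it against the others. Mki67, a marker of cycling cells, stood at 1.14 ± 0.255 CPM in controls and 10.7 ± 3.76 CPM in G93a mice (SD, n = 3 each, edgeR adjusted p = 0.000344), and the topoisomerase gene Top2a at 1.02 ± 0.58 and 11.3 ± 3.1 CPM (edgeR adjusted p = 0.00037). Mcm3 rose by 1.48 on the log2 scale (edgeR adjusted p = 0.00101). Thus the CDK inhibitor Cdkn2c and the proliferation genes were both higher in the same 3 libraries.

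The list of senescence-associated secretory and marker genes held several that were near 0 in young and control cords. Of 30 genes, 12 of 17 tested were higher and 1 lower (Vegfa) with age, beside 13.5% and 12.9% of all genes. In G93a mice 19 of 22 tested were higher and 1 lower (Vegfa), beside 18.4% and 15.5% of all genes. The medians were 1.08 and 2.47 on the log2 scale over the tested genes. Some of these, such as Timp1, Mmp12 and Ccl3, were so low in young or control cords that they passed the count filter through the group where they were high, and genes low in both groups were not tested, so neither the counts nor the medians rank this list against the others. The inhibitor of metalloproteases Timp1 stood at 0.332 ± 0.197 CPM in young and 5.33 ± 1.31 CPM in old cords (SD, n = 8 each, edgeR adjusted p = 1.41e-10). The macrophage elastase gene Mmp12 stood at 0.169 ± 0.17 and 6.63 ± 2.48 CPM (edgeR adjusted p = 7.97e-10). Gpnmb, a membrane glycoprotein of phagocytes, rose by 5.45 with age (SE 0.499, edgeR adjusted p = 4.51e-10) and by 7.10 in G93a mice (SE 0.528, edgeR adjusted p = 0.000122) on the log2 scale. In G93a mice the chemokine gene Ccl3 stood at 0.148 ± 0.131 CPM in controls and 15.9 ± 3.9 CPM in G93a mice (edgeR adjusted p = 8.14e-05), and Mmp12 at 0.2 ± 0.269 and 23.7 ± 5.37 CPM (edgeR adjusted p = 8.97e-05). Microglia and macrophages also express several of these genes, and the microglia markers rose in the same libraries with the values given above.

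**Figure D4:**
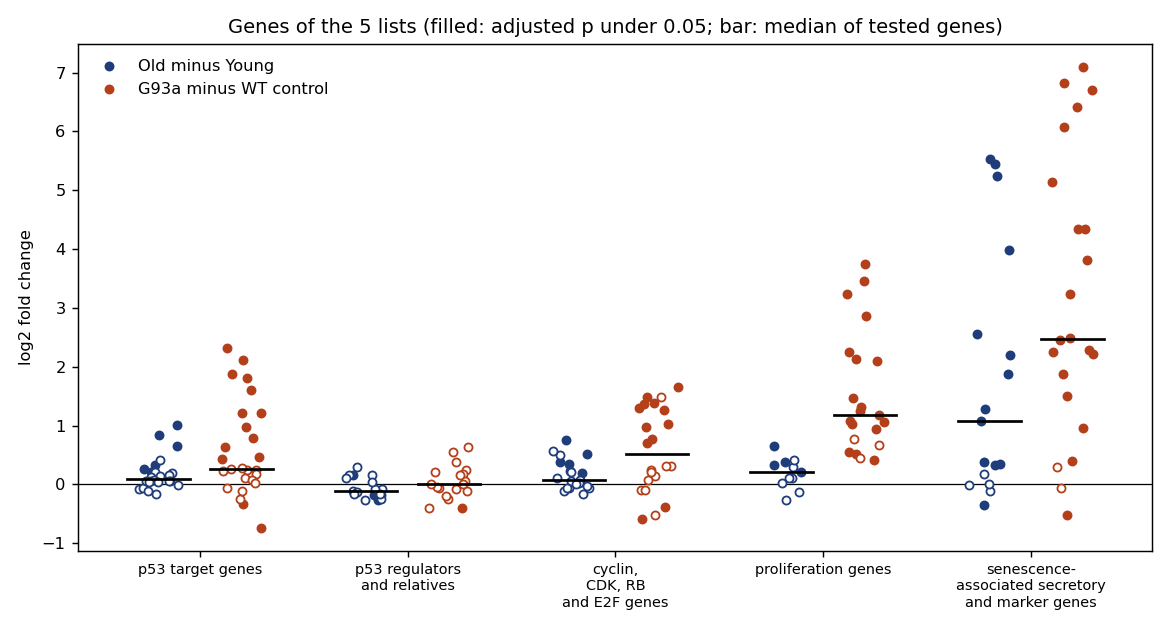
Log2 fold change of each tested gene of the 5 lists, in blue for old minus young and in red for G93a minus WT control, with the list median as a bar and filled points at an adjusted p under 0.05. The medians are over tested genes alone, 0.10 and 0.27 for the p53 targets and 1.08 and 2.47 for the senescence-associated list, some of whose genes passed the count filter through the high group. Some genes of the proliferation, p53 target and cyclin lists also passed it through the G93a group.

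The genes whose levels followed Cdkn1a most closely were sought across all 22 libraries, by the Spearman correlation of deviations from the group means over 12610 genes with at least 10 counts in every library. They were P4ha1 (rho 0.878), Snx1 (0.863), Dnajc3 (0.839), Ahsa2 (0.816) and Wbp1l (0.804). Among the 10 genes, Ccng1 came first at rho 0.736, as number 34 of the 12610, followed by Mdm2 at 0.44, Cdkn1b at 0.313, Cdkn1c at 0.261, Trp53 at 0.179 and Cdkn2d at −0.195. Thus Ccng1 followed Cdkn1a from library to library more closely than Trp53 did. This is a description over libraries that share a kit within each experiment and differ in depth. Whether depth or dissection had a part in it was not tested. P4ha1, a collagen prolyl hydroxylase subunit, stood at 37.48, 50.43 and 55.32 CPM in controls and at 110.7, 58.62 and 69.56 CPM in G93a libraries a, b and c. It was chosen for this likeness to Cdkn1a over the same libraries, so the shared order is no further observation. Its log2 fold change in G93a mice was 0.74 (SE 0.231, edgeR adjusted p = 0.0368).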

How the data were processed

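RNA-seq of whole mouse spinal cord was analysed in 22 libraries of 4 groups. The authors aligned reads with STAR and summarized them per gene with RSEM on the Ensembl 88 annotation of mm10, and the submitters' notes also name SAMtools 1.3. The authors deposited the expected counts, which held whole numbers in every library, and, in another file, log2 values of FPKM after adding 1, of which 304 were above 0 although the count was 0. All columns were used, and each names a group and a library but no replicate number. No pair of libraries in a group was alike within sampling noise (chi-square per degree of freedom at least 2.525). The study's methods give 1 mouse per library, and nothing says that mice were pooled.

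The 10 genes and all lists were chosen with earlier results of these data known. Counts were tested over all genes with edgeR 4.0.16 in R 4.3.3 (genes kept by filterByExpr at 10 counts per library and 15 in all, TMM, quasi-likelihood test, Benjamini-Hochberg adjustment), 1 fit per comparison and 1 fit of all 22 libraries for the difference, and called at an adjusted p under 0.05. The study's rule also asks for an absolute log2 fold change above 1. Of 21995 gene IDs 21842 were found in GENCODE M21, from which the positions come. CPM used TMM library sizes, and exact permutation tests used log2 CPM with a prior count of 2. A group with at most 3 counts in every library was taken as at the floor. Ratios of pooled counts have exact (Clopper-Pearson) 95% intervals that cover counting error only. Listed genes are named where they had 1 of the 3 smallest adjusted p-values of their list. Those that complete a count of 5 or fewer, or are named for the count filter, were chosen after their values were seen. Promoter windows are from RefSeq. Alternatives were DESeq2 1.42.0, RLE factors, no count filter, at least 10 counts in every library, limma 3.58.1 on the deposited log2 values, 1 fit of all libraries, the study's rule and each library left out. On simulated data, 80% of 0.5-log2 and 97% of 1.5-log2 changes were recovered with the aging design (13647 genes), and 15% and 92% with the ALS design (14386 genes), where 12.3% of calls fell on unchanged genes against 4.84% in the aging design.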

Additional observations from a re-analysis of the deposited data

Results flagged for a closer look

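For 4 genes the change in G93a mice against WT controls differed from the change in old against young mice, by a test of the difference itself in a single edgeR fit of all 22 libraries. Over all 14502 genes of that fit, 25.8% differed in either direction and 11.6% had a difference above 0. On the log2 scale the difference was 1.60 for Cdkn1a, 1.22 for Cdkn2c, 0.62 for Mdm2 and 1.03 for Ccng1, with edgeR adjusted p = 0.0057, 0.0228, 0.000298 and 0.000187. That fit shares 1 estimate of spread per gene over all 4 groups, so these p-values do not measure the spread among the 3 G93a mice alone. Cdkn2c, Mdm2 and Ccng1 were called higher in G93a mice, with all 3 G93a libraries above every WT control. Over all genes tested in the ALS comparison, 18.4% were called higher and 25.7% had all 3 G93a libraries above every control. Cdkn1a was not called in that comparison (edgeR adjusted p = 0.0522), and 2 of its 3 G93a libraries lay above every WT control. In old cords no library lay above the young range for Cdkn1a, Mdm2 or Ccng1, and 2 did for Cdkn2c. Without G93a library a the Cdkn1a difference was 0.73 (edgeR adjusted p = 0.107). Kit, age and sex makeup differ between the comparisons, and their part in the differences cannot be told apart from that of the disease model. No library stood apart in its group by Dixon's test in 20 tests of the groups of 8, where chance gives about 1 in 20.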

How the results depend on the processing

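The count of the 10 genes higher in old cords was 1, and it became 2 without the count filter and 2 in the fit of all 22 libraries (Cdkn2a and Trp53 in each), and 0 with the rule that adds an absolute log2 fold change above 1. With each library left out it ran from 1 to 2. Over all genes, 1839 of 13647 were higher in old cords in the main fit, and 1858 of 18634 without the count filter. In the fit of all 22 libraries 1834 of 14502 were higher, and 2.18% were higher with the rule that adds the fold change. The count higher in G93a mice was 4, and it became 2 with that rule (Cdkn2c and Ccng1) and ran from 3 to 5 with each library left out. It was 5 without the count filter, 5 with at least 10 counts in every library and 6 in the fit of all 22 libraries, with Cdkn1a added each time and Cdkn2a in the last. Over all genes, 2641 of 14386 were higher in G93a mice in the main fit, and 8.5% with the added fold change. In these 3 other settings 2619 of 18161, 2405 of 13520 and 2962 of 14502 were higher. None of the 10 genes was called lower in any setting of either comparison. In the main fits 12.9% of all genes were lower with age and 15.5% in G93a mice. Direction changed only for genes that were not called. For Cdkn1a with age the log2 fold change was 0.023 by limma and from −0.059 to 0.046 with libraries left out, and for Cdkn1b with age it was −0.020 and from −0.032 to 0.047. For Cdkn1b in G93a mice it was 0.002 with at least 10 counts in every library, 0.033 by limma and from −0.101 to 0.096 with libraries left out. For Cdkn2d in G93a mice it ran from −0.03 to 0.13. The Cdkn1b difference between the comparisons was 0.053 by limma and from −0.142 to 0.058 with libraries left out. Over all genes, limma called fewer lower genes than edgeR, 964 against 1761 with age, 1297 against 2236 in G93a mice and 983 against 2063 for the difference. The cause was not tested. No paired analysis was possible because the columns of the tables carry no replicate numbers. Depth limits Cdkn2a, Cdkn2b and Cdkn2c, and with 3 mice against 3 a change of 0.5 on the log2 scale was seldom recovered in simulated data.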
